A study of Homo sapiens with 20 samples.

Results

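The genes described here encode proteins of the cytosolic ribosome. They were taken by name: every probe set whose only gene symbol was RPL or RPS with a number (and an optional A), or RPLP0, RPLP1 or RPLP2, was kept, and of several probe sets of a gene the one with the highest mean signal over the 20 arrays stood for it. The rule found 30 probe sets for 25 genes, 15 of the large subunit (RPL) and 10 of the small subunit (RPS), among 14232 genes with a probe set of their own and 22011 probe sets in all. RefSeq lists 75 protein-coding symbols of this pattern. Of these, 20 appeared only on the 29 probe sets that also list other symbols, which are counted but not named here, and the other 30 were not analysed here. RPLP0, RPLP1, RPLP2 and RPL5 are not among the 25.

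A ribosome holds 1 copy of nearly every one of its proteins, so a cell needs these proteins in matched amounts. Most of the mRNAs start with a C followed by a run of pyrimidines, the 5′ terminal oligopyrimidine (5′TOP) tract, through which the growth-sensing kinase mTOR and the RNA-binding protein LARP1 set their translation. The transcription factor MYC promotes ribosome production in lymphoid and plasma cell tumours, and BET inhibitors lower MYC in such cells.

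The arrays came from 2 human cell lines, each a single line: LP-1 (LP1 in the labels), derived from multiple myeloma, and Raji, derived from Burkitt lymphoma. In each line RNA was taken from untreated cells at 0 h and from cells given 500 nM of a BET inhibitor, or of its inactive enantiomer, for 4 or 8 h, with 2 arrays in each of the 10 groups, biological replicates according to the design text. The labels do not name the compound, and the p-values measure the spread between these replicates. Cultures of 1 line at 1 dose are a limited model of the tumours.

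Array medians lay between 5.132 and 5.395 on the log2 scale, and replicate arrays correlated at r = 0.973 to 0.989 across all probe sets. In untreated cells, all 11 measured plasma cell markers lay above the median of the LP-1 arrays and 10 of 11 measured B cell markers above that of the Raji arrays, against 8 plasma cell markers in Raji and 4 B cell markers in LP-1. Of T and NK cell markers 2 of 12 in LP-1 and 1 of 12 in Raji lay above it, and of myeloid markers 1 of 7 in both. MYC was lower with the inhibitor than with the enantiomer in all 4 comparisons, with log2 differences of -2.30 and -1.85 in LP-1 at 4 and 8 h and -1.41 and -1.40 in Raji, and HEXIM1, a gene that BET inhibitors raise, was higher by 1.04, 1.45, 1.93 and 1.90 (limma, highest adjusted p 0.00269 over the 8 values).

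Promoter sequences from RefSeq (build GRCh38.p14) were on hand for 23 of the 25 genes, all but RPL8 and RPS15A. The windows printed here run from 40 bases before the annotated transcription start to 15 bases from it on, 5′ to 3′ on the strand of the gene, and capitals mark the pyrimidine tract that begins at the start itself. They are shown because this tract is the feature that the genes share beyond their names, and because these 9 genes carry the results given further on. RPL11, whose annotated start is followed by no such tract, is shown for contrast.
RPS6 (chr9:19380222-19380276, minus strand): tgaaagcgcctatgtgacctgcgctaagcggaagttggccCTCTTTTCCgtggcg
RPS23 (chr5:82278340-82278394, minus strand): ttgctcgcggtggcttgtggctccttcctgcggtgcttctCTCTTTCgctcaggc
RPS14 (chr5:150449725-150449779, minus strand): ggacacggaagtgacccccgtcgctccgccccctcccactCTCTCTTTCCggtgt
RPS25 (chr11:119018329-119018383, minus strand): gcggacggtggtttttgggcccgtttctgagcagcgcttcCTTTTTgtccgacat
RPS21 (chr20:62387063-62387117, plus strand): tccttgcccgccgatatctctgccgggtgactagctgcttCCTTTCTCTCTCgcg
RPL18 (chr19:48619164-48619218, minus strand): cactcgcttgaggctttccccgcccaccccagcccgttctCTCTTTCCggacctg
RPL28 (chr19:55385892-55385946, plus strand): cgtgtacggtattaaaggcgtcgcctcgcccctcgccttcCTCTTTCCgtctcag
RPL37A (chr2:216498804-216498858, plus strand): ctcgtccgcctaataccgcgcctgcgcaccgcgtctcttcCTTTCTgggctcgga
RPL11 (chr1:23691739-23691793, plus strand): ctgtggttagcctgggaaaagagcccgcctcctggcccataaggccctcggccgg

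A C at the start followed by at least 4 pyrimidines was found in 18 of the 23 members (78.3%), with tracts of 5 to 14 bases, against 729 of 15842 protein-coding genes (4.6%) and 5 of 66 genes for mitochondrial ribosomal proteins (7.58%). RPS24 had the longest tract and RPL41, which encodes the smallest of the proteins, the shortest. The 5 members without one at the annotated start were RPL11, RPL4, RPL6, RPL9 and RPS29. Only a tract that begins exactly at that start was counted, so an mRNA that starts elsewhere may still carry one. Which start these 5 genes use in these cells was not tested. Over 300 bases (250 before the start and 50 from it on, both strands), the MYC E-box CACGTG, which reads the same on both strands, was in 0 of 23 members and in 8.88% of all promoters, and the TATA box TATAAA was in 0 of 23 against 9.63%. The GC box GGGCGG was in 12 members (52.2% against 58.5%) and the ETS-type motif CCGGAAG in 7 (30.4% against 14.2%). The genes for mitochondrial ribosomal proteins had the GC box in 62.1% and the ETS-type motif in 40.9% of their 66 promoters. None of these letter strings contains another, and each count describes the letters in these windows alone.

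The label of each probe set was checked against its place in the array's numbering, since probe sets are numbered along the genome. For 20 of the 25 members (80.0%), at least 5 of the 10 nearest named probe sets in that numbering belong to genes within 5 Mb of the gene in RefSeq, as they do for 14208 of all 14401 probe sets with 1 placed symbol (98.7%). For RPL14, RPL27A, RPL4, RPS13 and RPS29, 0 of the 10 neighbours lie on the chromosome of the gene. Ribosomal protein genes have many processed copies elsewhere in the genome, and whether these 5 probe sets measure such copies was not tested. RPL14 and RPL27A also have a second, dimmer probe set at their own locus, with differences between inhibitor and enantiomer from -0.30 to 0.15 log2 units in the 4 comparisons by line and time. The 5 genes are kept, as the rule asks, and are drawn with open symbols in the figures.

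Most members gave a strong signal. Their mean log2 values had a median of 8.73, against 5.27 for all probe sets, and 21 of the 25 lay above that overall median. The level of one probe set cannot be read against another as an amount of mRNA. For the 5 genes with more than 1 probe set the rule took the brightest, which favours a high level. The median itself is the value of RPL14, whose dimmer probe set at its own locus had a mean of 6.76. At the top were RPS23, which lies at the decoding site of the small subunit, with a mean of 12.27, RPS25 with 12.22, RPS24 with 11.78 and RPS6, the substrate of the S6 kinases, with 11.62. RPS29 (3.15), RPS13 (4.43), RPS19 (4.68) and RPL37A (4.86) were the 4 lowest. RPS29 and RPS13 are among the probe sets whose neighbours lie elsewhere, while those of RPS19, the gene most often mutated in Diamond-Blackfan anaemia, and RPL37A lie at their own loci.

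**Figure D1:**
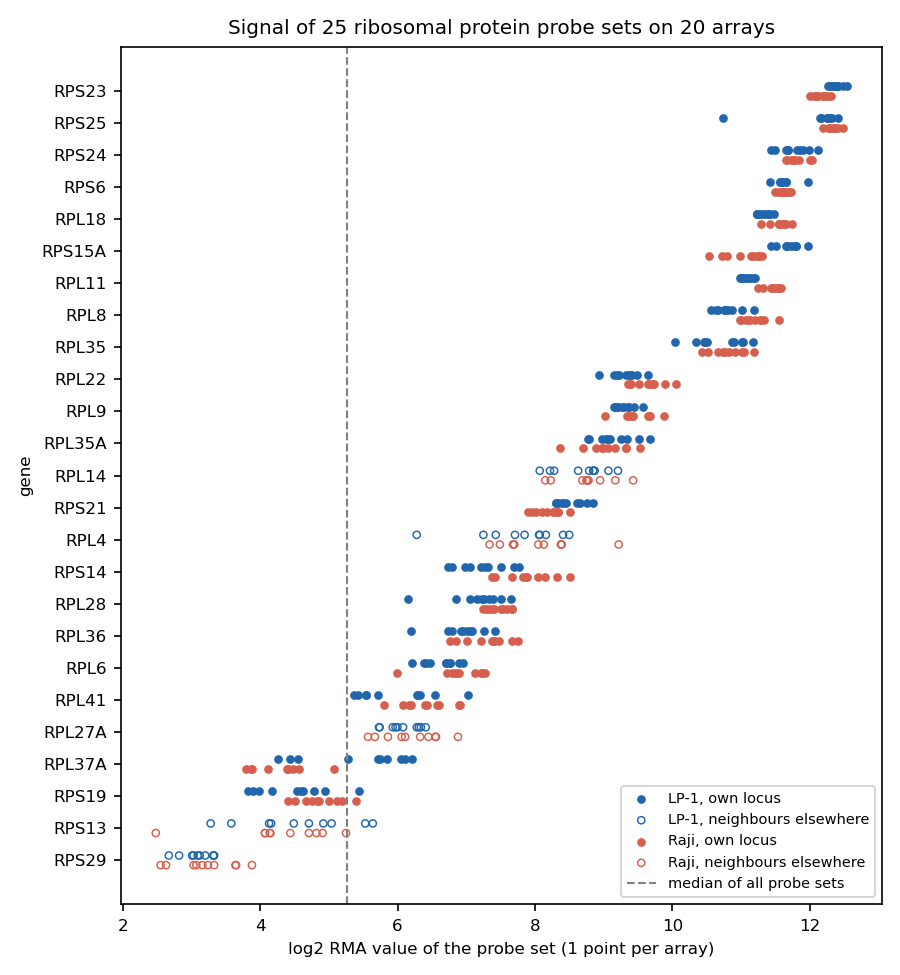
The log2 value of each of the 25 genes (rows, ordered by mean) on each of the 20 arrays (points, LP-1 above and Raji below), with open points for the 5 probe sets whose neighbours lie elsewhere and a dashed line at the median of all probe sets, 5.27. RPS23 runs from 12.01 to 12.55 across lines and treatments, while RPL4, RPS13 and RPL37A spread over more than 2 units.

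The strength of the signal went with its precision. The SD between replicates, pooled over the 10 groups, was 0.0916 for RPL11, 0.105 for RPS6, 0.106 for RPS23 and 0.117 for RPL18, and 0.786 for RPS13, 0.703 for RPL4, 0.519 for RPL41 and 0.510 for RPL37A. Its median was 0.192 over the 12 members with a mean above 9 (RPL8, RPL9, RPL11, RPL18, RPL22, RPL35, RPL35A, RPS6, RPS15A, RPS23, RPS24 and RPS25) and 0.358 over the 13 at 9 or less, a division chosen after the levels were seen. Over all probe sets it was 0.200, and 0.157 over the 1730 with a mean above 9. The median over the 25 members was 0.292. The division is not strict: RPS21 (0.149) and RPS29 (0.212) among the 13 had a smaller SD than RPL35A (0.344), RPS25 (0.324) and RPL35 (0.292) among the 12.

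Setting the BET inhibitor against its enantiomer, with dose and time matched, asks what follows from BET inhibition itself. None of the 25 members passed the test in either line at either time: 0 of 25 had an adjusted p under 0.05 in limma (termed a call here) in LP-1 at 4 h (2.28% of all probe sets did), in LP-1 at 8 h (5.73%), in Raji at 4 h (1.78%) and in Raji at 8 h (1.88%). At an unadjusted p under 0.05 there were 1, 3, 0 and 1 members in the same order. With both times averaged, 0 of 25 passed in either line, against 7.06% of all probe sets in LP-1 and 6.29% in Raji, with 3 and 0 at an unadjusted p under 0.05. Other settings of the same test called between 0 and 3 members in LP-1 at 8 h and over both times, namely RPL28, RPL37A and RPS25, and 0 in LP-1 at 4 h and in Raji.

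The centre of the 25 differences stayed near 0. Their median, inhibitor minus enantiomer, was -0.024 and -0.021 log2 units in LP-1 at 4 and 8 h and 0.032 and -0.090 in Raji, beside -0.037, 0.064, 0.011 and -0.001 for all probe sets. The sign of each of these 4 medians turned under some alternative setting: they ran from -0.103 to 0.044 and from -0.101 to 0.067 in LP-1, and from -0.116 to 0.143 and from -0.207 to 0.030 in Raji. For the 12 genes of strong signal the medians were -0.018, -0.004, 0.014 and 0.017. Within those 12 the differences ran from -0.11 to 0.18 in LP-1 at 4 h, from -0.77 to 0.25 at 8 h, from -0.19 to 0.20 in Raji at 4 h and from -0.15 to 0.18 at 8 h. The 13 genes of weaker signal had medians of -0.279, -0.348, 0.143 and -0.173. The values are normalised within each array, so a change of total RNA per cell would not appear in them, and fewer cells and less RNA per cell cannot be told apart.

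**Figure D2:**
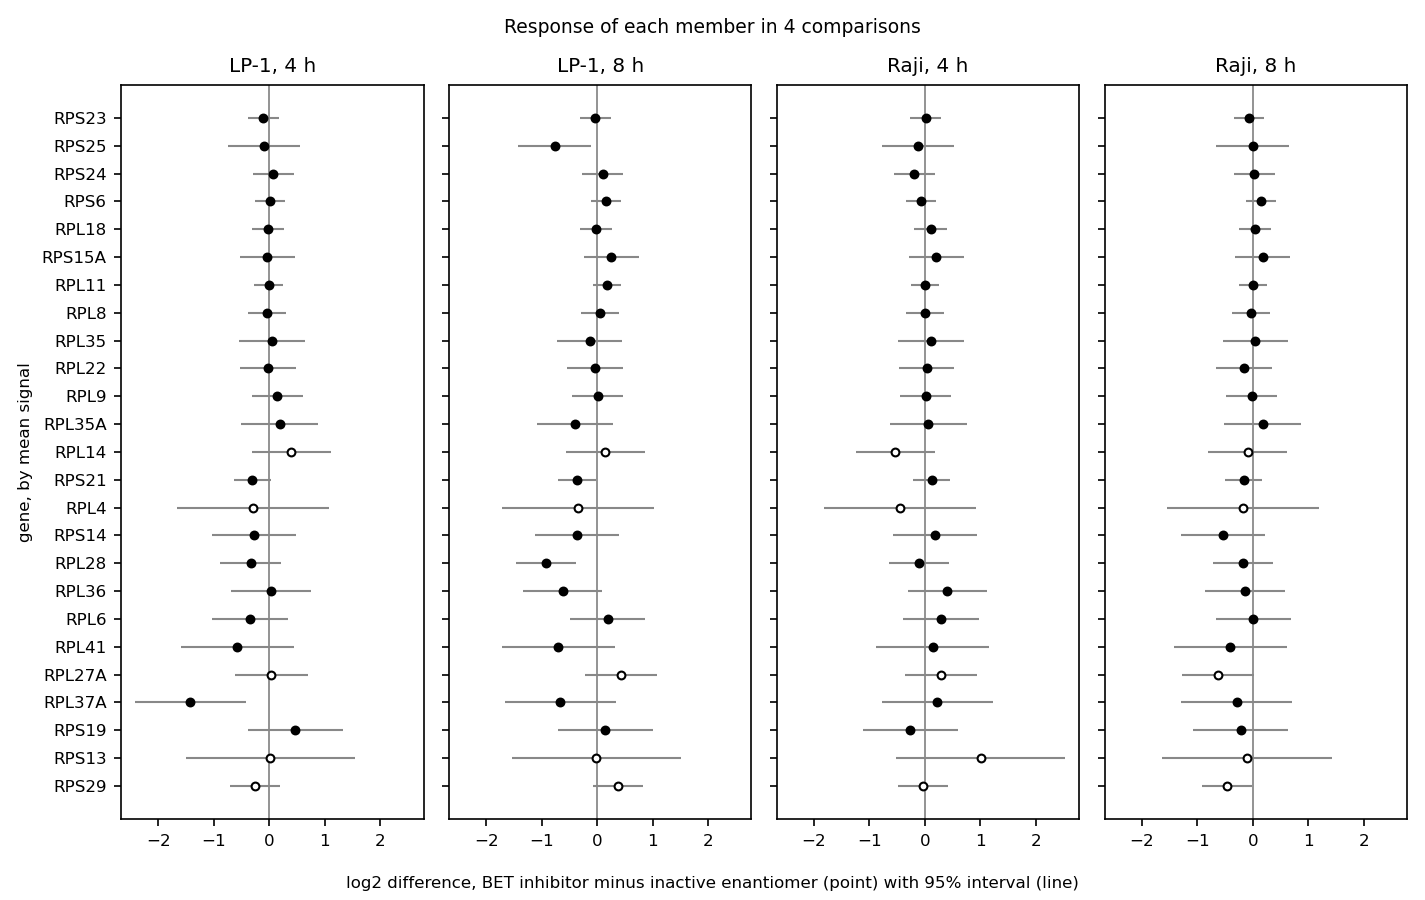
The difference of each gene between BET inhibitor and inactive enantiomer (log2 units, point) with its 95% interval from limma (line), in LP-1 and Raji at 4 and 8 h, ordered by mean signal from RPS23 to RPS29. The intervals are shortest for RPL11, RPS6 and RPS23 and longer for RPS25, RPL35 and RPL35A among the genes of strong signal, and open points mark the 5 probe sets whose neighbours lie elsewhere.

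How small a change these data could show differs by gene. Of the 12 strong genes, 6, 7, 6 and 7 had a 95% interval wholly within 0.5 log2 units of 0 in the 4 comparisons, and 100%, 83.3%, 100% and 100% of them had one within 1 unit. Of the 13 weaker genes, 38.5%, 38.5%, 46.2% and 46.2% had an interval within 1 unit. For RPS6 the difference was 0.14 in Raji at 8 h with an interval from -0.13 to 0.42, and for RPL11 in LP-1 at 4 h it was -0.01 with an interval from -0.27 to 0.24. A 2-fold change of the array signal thus lies outside the interval of most strong genes, and the intervals of most weak genes include one. How the signal follows the amount of mRNA at these levels was not tested.

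RPL11 binds the 5S rRNA together with RPL5 and, when ribosome assembly is disturbed, the p53 inhibitor MDM2. On the LP-1 arrays it read 11.00 and 11.07 untreated, 11.14 and 11.02 with the enantiomer at 4 h, 11.12 and 11.02 with the inhibitor at 4 h, 10.98 and 11.06 with the enantiomer at 8 h and 11.21 and 11.19 with the inhibitor at 8 h. The inhibitor arrays at 8 h were the highest of the 10 LP-1 arrays, yet the difference of 0.18 at that time did not pass the test (adjusted p = 0.472, limma). On the Raji arrays it read 11.44 and 11.55 untreated, 11.25 and 11.54 with the enantiomer and 11.32 and 11.47 with the inhibitor at 4 h, and 11.48 and 11.59 and then 11.54 and 11.54 at 8 h. All 10 Raji arrays lay above all 10 LP-1 arrays.

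RPS6, whose phosphorylation is the usual readout of mTOR signalling, was among the steadiest members. It read between 11.43 and 11.97 in LP-1 (median 11.60) and between 11.50 and 11.73 in Raji (median 11.61). Its highest value, 11.97, came from replicate 1 of LP-1 with the inhibitor at 8 h, whose other replicate read 11.60. The ranges of the lines over all conditions overlapped. RPS23 read 12.28 and 12.27 with the inhibitor against 12.34 and 12.42 with the enantiomer in LP-1 at 4 h, and 12.39 and 12.41 against 12.31 and 12.55 at 8 h. The 4 h arrays do not overlap and the 8 h arrays do, and neither difference passed the test (-0.11 and -0.03).

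**Figure D3:**
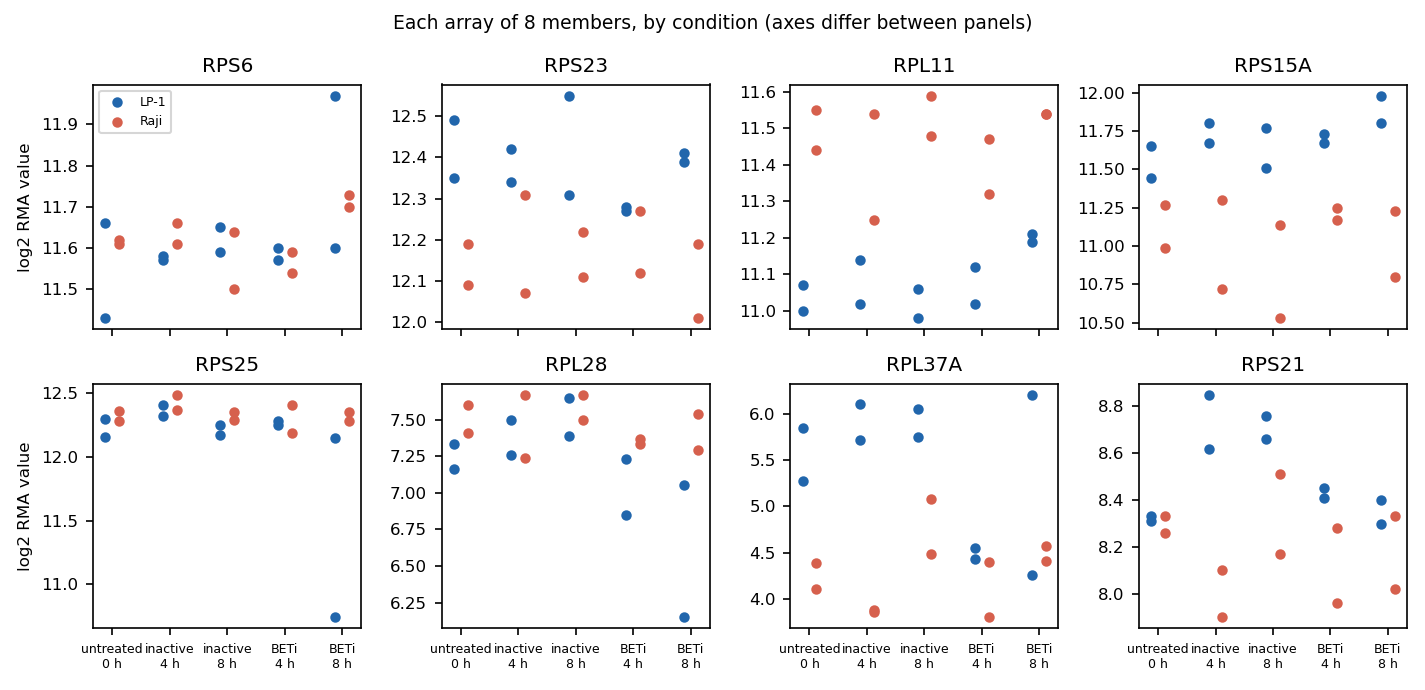
The log2 value of RPS6, RPS23, RPL11, RPS15A, RPS25, RPL28, RPL37A and RPS21 on every array (points), by condition, with LP-1 in blue and Raji in red and a separate vertical axis in each panel. RPL11 and RPS15A separate the lines on all 20 arrays, and the low point of RPS25 at 10.74 is replicate 1 of LP-1 with the inhibitor at 8 h.

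The members nearest to a call were in LP-1. RPL28, a large-subunit protein, read 7.39 and 7.65 with the enantiomer at 8 h and 6.15 and 7.05 with the inhibitor, a difference of -0.92 ± 0.25 (SE) and an adjusted p of 0.0517 in limma. Both inhibitor arrays lay below both enantiomer arrays, but 0.90 apart. The gene was called under 6 of 11 alternative settings, and the adjusted p ran from 0.00696 to 0.373 over them. Without replicate 1 of the inhibitor group the difference was -0.47, and without replicate 2 it was -1.37. At 4 h RPL28 read 6.85 and 7.23 against 7.26 and 7.50, a difference of -0.34 that did not pass, and in Raji at 8 h 7.54 and 7.29 against 7.67 and 7.50. The Raji arrays overlap, and the difference between the lines at 8 h, 0.75 with an interval from -0.02 to 1.52, did not pass either (adjusted p = 0.569).

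RPL37A, a zinc-finger protein of the large subunit with one of the weakest signals, had the lowest value of the LP-1 comparison at 4 h. It read 5.72 and 6.11 with the enantiomer and 4.43 and 4.55 with the inhibitor, a difference of -1.42 ± 0.46 (interval -2.42 to -0.42, adjusted p = 0.155, limma). At 8 h it read 6.05 and 5.75 against 4.26 and 6.21. The 4 h arrays are well apart, and at 8 h the inhibitor arrays enclose the enantiomer arrays. In Raji the gene read 3.88 and 3.86 with the enantiomer and 3.80 and 4.40 with the inhibitor at 4 h. The difference between the lines at 4 h was 1.65 with an interval from 0.23 to 3.06 (adjusted p = 0.267).

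RPS25, which some viral and cellular mRNAs need for internal initiation, read 12.17 and 12.25 with the enantiomer and 10.74 and 12.15 with the inhibitor in LP-1 at 8 h. The second inhibitor array was thus close to the enantiomer arrays, and the value of 10.74 stood alone among the 20 arrays, the others lying between 12.15 and 12.49. A second, dimmer probe set of the gene, whose neighbours lie elsewhere, differed by 0.538 at 4 h and 0.155 at 8 h in LP-1, without a call. For the brighter probe set the difference of -0.77 at 8 h did not pass the test (adjusted p = 0.182, limma). It was -0.06 without replicate 1 of the inhibitor group (adjusted p = 0.908) and -1.47 without replicate 2 (adjusted p = 0.000107), and over all 11 alternatives the adjusted p ran between these values. Without that second array, RPL28, RPL37A and RPS25 were called in LP-1 at 8 h and over both times, and RPS25 also in the difference between lines at 8 h. Over both times RPL28 differed by -0.63 (adjusted p = 0.0526) and RPL37A by -1.04 (adjusted p = 0.0812), and without that second array by -0.86 (adjusted p = 0.00498) and -1.53 (adjusted p = 0.00128). RPL28 was also called over both times without replicate 2 of the 4 h inhibitor group (-0.73, adjusted p = 0.0481), and its adjusted p ran from 0.00498 to 0.175 over the alternatives.

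On replicate 1 of LP-1 with the inhibitor at 8 h, 6 members read more than 0.5 below replicate 2: RPL4 (-2.22), RPL37A (-1.95), RPS25 (-1.41), RPL28 (-0.90), RPL36 (-0.86) and RPS13 (-0.58). Another 2 read more than 0.5 above it, RPS19 (0.96) and RPL35 (0.71). Over all probe sets 7.76% were lower and 10.3% higher by that much. What part this array has in the low values of RPL28, RPL37A and RPS25 was not tested beyond the fits that leave it out.

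RPS21, a small-subunit protein, had a smaller but tighter difference. With the enantiomer it read 8.62 and 8.85 at 4 h and 8.66 and 8.76 at 8 h in LP-1, and with the inhibitor 8.45 and 8.41, then 8.40 and 8.30. The inhibitor arrays lay below the enantiomer arrays at both times and near the untreated arrays, at 8.31 and 8.33. Neither the difference of -0.36 at 8 h (adjusted p = 0.231, limma) nor that of -0.33 over both times (adjusted p = 0.101) passed. The enantiomer arrays themselves stood 0.42 and 0.39 above the untreated ones. In Raji the inhibitor arrays read 7.96 and 8.28, then 8.33 and 8.02, and overlapped those of the enantiomer at 7.90 and 8.10, then 8.17 and 8.51.

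In Raji the member nearest to a call was RPS29 at 8 h, one of the probe sets whose neighbours lie elsewhere, with 3.07 and 3.03 for the enantiomer and 2.63 and 2.55 for the inhibitor (difference -0.46, adjusted p = 0.370). Its arrays do not overlap, at readings low on the scale of the array. RPS14, the gene whose loss underlies the anaemia of myelodysplasia with a deleted long arm of chromosome 5, read 7.87 and 8.51 against 7.89 and 7.42, and RPL27A 6.88 and 6.06 against 6.11 and 5.57. Both overlap. RPL14 read 9.43 and 9.17 with the enantiomer and 8.75 and 8.77 with the inhibitor at 4 h (-0.54, adjusted p = 0.527), while its second probe set, at the locus of the gene, differed by -0.01.

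Pairs of arrays without overlap were at most as frequent among the members as over all probe sets. In LP-1, the inhibitor and enantiomer arrays did not overlap for 10 of 25 members at 4 h (44.0% of all probe sets) and for 11 at 8 h (44.2%). In Raji they did not for 3 (43.6%) and 4 (40.3%). At 4 h in LP-1, 8 members were lower with the inhibitor (26.4% of all probe sets were) and 2 higher (17.6%), and at 8 h 5 were lower (16.3%) and 6 higher (27.9%). The response itself, compared between lines, differed for 0 of 25 members at 4 h (0.114% of all probe sets were called) and for 0 at 8 h (0.245%), with 1 and 2 at an unadjusted p under 0.05 in limma.

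The 8 members linked to Diamond-Blackfan anaemia, an inherited failure of red cell production (RPL11, RPL18, RPL35, RPL35A, RPS15A, RPS19, RPS24 and RPS29), had medians of 0.020, 0.125, 0.030 and 0.033 in the 4 comparisons, with 0 calls and 0, 0, 0 and 1 at an unadjusted p under 0.05. RPL35A read 9.34 and 9.03 with the enantiomer and 8.79 and 8.78 with the inhibitor in LP-1 at 8 h, without overlap, yet 9.07 and 9.51 against 9.68 and 9.26 at 4 h, with overlap. RPS19 read 4.79 and 3.83 against 4.94 and 3.98 at 8 h, so its replicates lay further apart than its groups. RPL22, the blood cancer gene whose paralogue RPL22L1 can take its place, read 9.49 and 9.38 against 9.37 and 9.42, also with overlap.

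The widest replicate gaps were those of RPS13 and RPL4, a protein that lines the exit tunnel. RPS13 had the highest difference of any member in Raji at 4 h, 1.01, and it rested on enantiomer arrays of 2.48 and 5.25 that enclose the inhibitor arrays of 4.82 and 4.91 (adjusted p = 0.596, limma). RPL4 read 8.13 and 9.22 against 8.38 and 8.05 at that time, and RPL41 6.91 and 6.60 against 6.89 and 5.80 at 8 h. All of these overlap, and their 95% intervals span more than 1 log2 unit on at least one side of 0.

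Other genes of the same machinery were measured beside the members. The other 7 ribosomal protein genes measured, which the naming rule leaves out, had 0 calls in the 4 comparisons and 0 members at an unadjusted p under 0.05 in limma, and their medians lay between -0.086 and 0.044. The 14 measured genes for other 5′TOP mRNAs, such as translation factors, also had 0 calls in limma, with 0, 1, 2 and 0 at an unadjusted p under 0.05 and medians of 0.008, 0.094, 0.177 and -0.013. Of all probe sets, between 1.78% and 5.73% were called in these comparisons. At these shares, 0 calls among 7 or 14 genes do not tell either list apart from all probe sets. The 29 probe sets that list a ribosomal protein symbol beside others had a few calls. In LP-1 there was 1 lower at 4 h and 1 lower at 8 h, where 2.28% and 5.73% of all probe sets were called. In Raji there were 1 higher and 1 lower at 4 h (1.78%), and 1 higher and 2 lower at 8 h (1.88%). Counts this small do not tell these probe sets apart from the members. The medians of the 29 probe sets were -0.125, -0.012, 0.115 and -0.004.

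The 64 genes for mitochondrial ribosomal proteins, which are built for a different ribosome, had medians of -0.269 and -0.266 in LP-1 and 0.048 and -0.162 in Raji, against -0.024, -0.021, 0.032 and -0.090 for the cytosolic members. In LP-1 59 and 52 of the 64 had a negative difference, against 15 and 14 of the 25 members. The lists were not matched for signal, and the 13 members with a mean of 9 or less had LP-1 medians of -0.279 and -0.348. In LP-1 at 4 h MRPL50 passed and fell (-0.87 ± 0.15, adjusted p = 0.0103, limma), where 2.28% of all probe sets were called. MRPS2 (-0.83), MRPL12 (-0.62), MRPS34 (-0.61) and MRPS5 (-0.48) fell at 8 h (5.73% of all probe sets). MRPL41 rose in Raji at 4 h (1.25, with 1.78% of all probe sets called). In Raji at 8 h 0 passed in limma (1.88%), with 9 at an unadjusted p under 0.05. With both times averaged, MRPL46, MRPL50, MRPS2, MRPS26, MRPS31, MRPS34, MRPS35 and MRPS5 were called lower in LP-1 (7.06% of all probe sets were called). In Raji MRPL41 was then called higher and MRPS5 lower (6.29%). The difference between the 2 lists was not tested.

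Of the 21 measured chaperones of ribosomal proteins and late assembly factors, 0 passed in Raji at either time (1.78% and 1.88% of all probe sets did). There, 3 and 4 had an unadjusted p under 0.05 at 4 and 8 h. In LP-1 3 fell at each time (2.28% and 5.73% of all probe sets were called). HEATR3, which helps to bring RPL5 into the nucleus, fell by 0.65 at 4 h and 1.23 at 8 h, PDCD2L, a partner of a small-subunit protein, by 0.88 and 1.62, GRWD1, a chaperone of RPL3, by 0.65 at 4 h and MRTO4, an assembly factor of the large subunit, by 1.12 at 8 h. The list's medians were -0.391 and -0.283 in LP-1 and -0.121 and -0.161 in Raji. With both times averaged, HEATR3, PDCD2L, GRWD1, MRTO4, LTV1, NOB1 and RRS1 were called lower in LP-1 (7.06% of all probe sets were called). In Raji MRTO4 was then called lower (-0.69, adjusted p = 0.0205, limma, with 6.29% of all probe sets called). The response differed between lines at 8 h for HEATR3 (1.00 ± 0.16, adjusted p = 0.0311) and PDCD2L (1.48 ± 0.25, adjusted p = 0.0346). RPF2, which carries RPL5, RPL11 and the 5S rRNA to the assembling subunit, gave the lowest value, -3.05 ± 0.88 in LP-1 at 8 h, and did not pass (adjusted p = 0.0667), a gene named after its value was seen. RPL11 itself did not pass the test at these times.

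**Figure D4:**
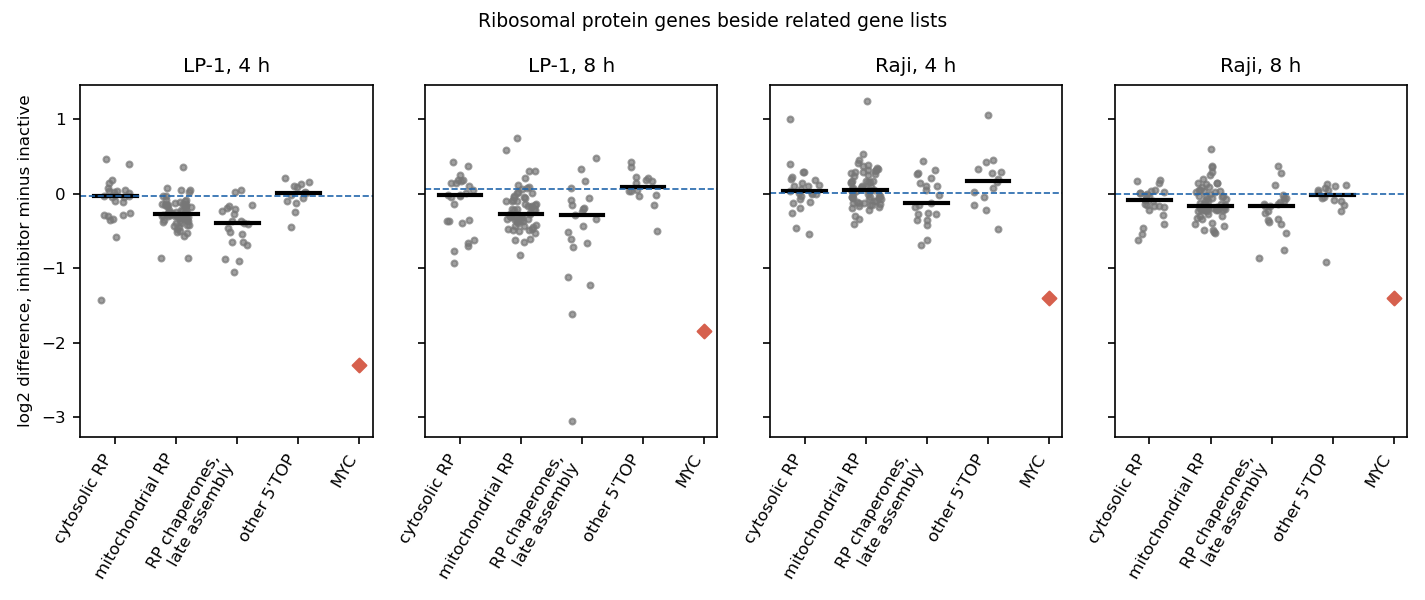
The difference between BET inhibitor and inactive enantiomer (log2 units) for each gene (grey points) of the 25 cytosolic ribosomal protein genes and of 3 related lists, with list medians (black bars), the median of all probe sets (dashed blue) and MYC (red diamond). The medians of the cytosolic genes run from -0.090 to 0.032, while MYC lies between -1.40 and -2.30.

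Around RPL11, the 6 measured genes of the 5S particle and p53 axis held 3 calls in LP-1 at each time. Of all probe sets 2.28% and 5.73% were called there. MDM2 fell by 0.85 and 0.74 and its relative MDM4 by 1.19 and 0.85, and the p53 target CDKN1A rose by 1.48 and 1.04. In Raji 0 of 6 passed at either time (1.78% and 1.88% of all probe sets did), with 1 and 1 at an unadjusted p under 0.05 in limma. The difference between lines passed for 0 of 6 at both times (0.114% and 0.245% of all probe sets), with 3 and 0 at an unadjusted p under 0.05. At these shares, 0 calls among 6 genes do not show that the lines differ. Of the 13 S6 kinases and regulators of 5′TOP mRNAs, EIF4EBP2, an mTOR-controlled repressor of translation, rose by 0.65 in LP-1 and 0.64 in Raji at 8 h. LARP1 fell by 0.56 in Raji at 8 h. At that time 5.73% of all probe sets were called in LP-1 and 1.88% in Raji. Of the 8 genes of ribosome quality control, USP21, an enzyme that removes ubiquitin from small-subunit proteins, fell by 0.90 and 0.65 in LP-1 at 4 and 8 h (2.28% and 5.73% of all probe sets).

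The enantiomer arrays were also set against the untreated arrays of the same line, a comparison in which the enantiomer itself, handling and time cannot be told apart. In LP-1, 0 of 25 members passed at 4 h (0.0136% of all probe sets did) and 0 at 8 h (0.504%), with 1 and 3 at an unadjusted p under 0.05. In Raji 0 passed at either time, as did 0% of all probe sets at both, and 0 and 0 members had an unadjusted p under 0.05 in limma. The medians were 0.120 and 0.142 in LP-1 and -0.120 and -0.003 in Raji. Over the alternatives they ran from 0.049 to 0.146 and from 0.051 to 0.255 in LP-1, and turned sign in Raji, from -0.262 to 0.055 and from -0.132 to 0.057. In LP-1 at 4 h the enantiomer arrays lay wholly above the untreated arrays for 10 of 25 members (15.5% of all probe sets), and wholly below for 3 (25.5%), and at 8 h above for 7 (13.8%) and below for 4 (32.9%). In Raji they lay above for 2 (14.3%) and below for 5 (24.7%) at 4 h, and above for 2 (17.4%) and below for 2 (17.8%) at 8 h. Both times of a line use the same 2 untreated arrays.

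RPL35, at the rim of the tunnel through which the new protein leaves, stood out among these. It read 10.34 and 10.04 in untreated LP-1 cells, 10.50 and 10.87 with the enantiomer at 4 h and 10.90 and 11.03 at 8 h, a difference of 0.78 at 8 h that did not pass (adjusted p = 0.205, limma). Its untreated LP-1 arrays were among the lowest for the gene, and the lower of them was the lowest of all 20. RPS24 read 11.50 and 11.44 untreated and 11.68 and 11.99 with the enantiomer at 4 h, also without overlap (0.36, adjusted p = 0.999). RPL8, next to the peptidyl transferase centre, read 10.57 and 10.64 untreated and 10.87 and 11.02 with the enantiomer at 8 h (0.34, adjusted p = 0.338). In Raji its untreated arrays, 11.28 and 11.55, lay above the enantiomer arrays at 4 h, 10.99 and 11.21 (-0.31, adjusted p = 0.672). The sides of RPL8 were thus opposite in the 2 lines, and neither difference passed.

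Between untreated lines, 3 of 25 members were called, all higher in Raji: RPL8, RPL11 and RPL18. Of all probe sets 24.3% were called, 6.79% higher and 17.5% lower. RPL8 read 11.28 and 11.55 in Raji against 10.57 and 10.64 in LP-1, a difference of 0.81 ± 0.16 (1.75-fold, adjusted p = 0.00186, limma). RPL11 differed by 0.46 (adjusted p = 0.0107) and RPL18, reported mutated in Diamond-Blackfan anaemia, by 0.40 (adjusted p = 0.0458). RPL8 alone kept its call whichever untreated array was left out. RPL11 lost it without LP-1 replicate 1 (0.42, adjusted p = 0.0765) and without Raji replicate 2 (0.40, adjusted p = 0.0935), and RPL18 lost it without any one of the 4 arrays (0.31 to 0.49, adjusted p 0.0642 to 0.280). RPL37A (-1.32, adjusted p = 0.0564) and RPL35 (0.75, adjusted p = 0.0667) came close and did not pass.

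Averaged over the 5 conditions, which each line shares with the other, 10 of 25 members differed between the lines, beside 42.0% of all probe sets. Higher in Raji were RPS14 by 0.67, RPL11 and RPL8 by 0.39 each, RPL22 by 0.32, RPL28 by 0.31 and RPL18 by 0.22, and lower were RPL37A (-1.12), RPS15A (-0.66), RPS21 (-0.32) and RPS23 (-0.22). The split was 6 higher and 4 lower, against 16.5% and 25.5% of all probe sets. With arrays centred on their median it was 10 and 3, RPS23 losing its call (adjusted p = 0.128, and 0.00127 to 0.128 over its alternatives), and with quantile normalization 10 and 4. Centring moves the median difference of all probe sets from -0.035 to 0.083 over the 5 conditions and from -0.026 to 0.108 between untreated lines.

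**Figure D5:**
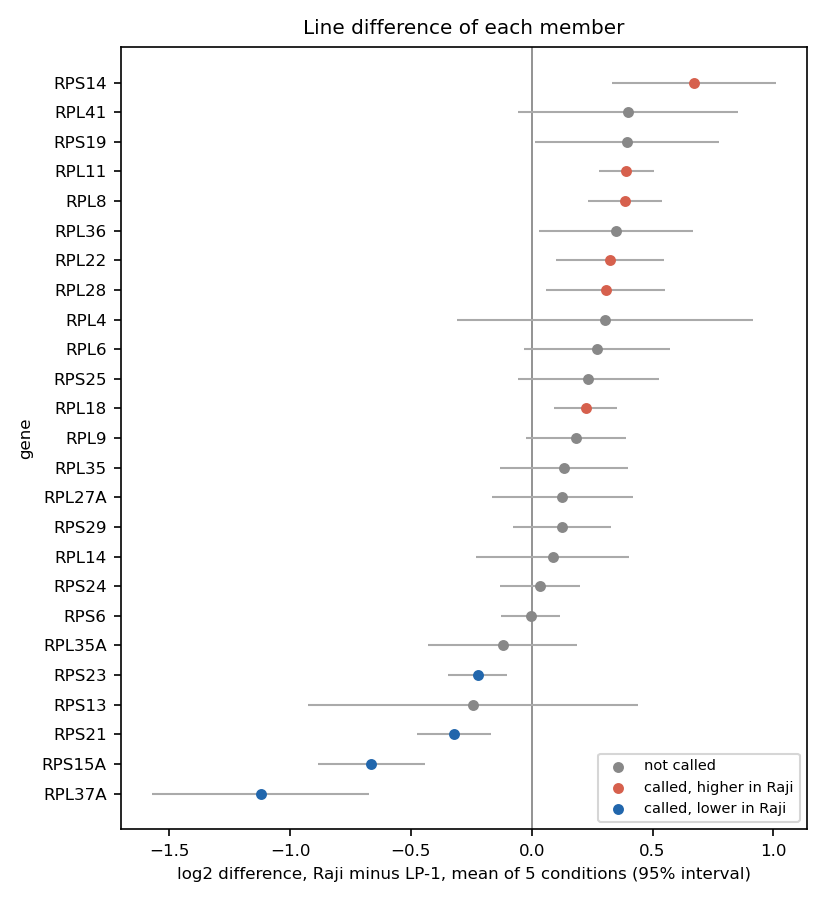
The difference between Raji and LP-1 for each gene, averaged over the 5 conditions (log2 units, point) with its 95% interval from limma (line), ordered by size. The 6 genes in red were called higher in Raji and the 4 in blue lower, and RPS6 lies at 0 with a short interval.

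RPS15A and RPL11 were the only members whose arrays did not overlap between lines at all, 2 of 25 against 15.3% of all probe sets. RPS15A read between 11.44 and 11.98 in LP-1 (median 11.70) and between 10.53 and 11.30 in Raji (median 11.16), and it was lower in Raji in all 5 conditions, with differences from -0.88 to -0.41 (over all, -0.66 ± 0.10, 1.58-fold, adjusted p = 0.000113, limma). RPL11 read between 10.98 and 11.21 in LP-1 and between 11.25 and 11.59 in Raji, higher in all 5 conditions by 0.31 to 0.51 (0.39 ± 0.05, 1.31-fold, adjusted p = 3.32e-05). The replicate SD of RPL11 was 0.0916 and that of RPS15A 0.238. RPS23 was also lower in Raji in all 5 conditions, with differences from -0.30 to -0.08, and its arrays overlap slightly, from 12.27 to 12.55 in LP-1 and from 12.01 to 12.31 in Raji.

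RPS14 read between 6.74 and 7.77 in LP-1 (median 7.24) and between 7.38 and 8.51 in Raji (median 7.88), higher in Raji in all 5 conditions (0.67 ± 0.16, adjusted p = 0.00306, limma). RPL37A read between 4.26 and 6.21 in LP-1 (median 5.73) and between 3.80 and 5.08 in Raji (median 4.39), the largest difference of any member, at readings around or below the median of the arrays. RPL22, which is deleted or mutated in some T cell leukaemias, read between 8.93 and 9.64 in LP-1 and between 9.35 and 10.06 in Raji. The arrays of these 3 genes overlap between the lines. RPL22 lost its call without Raji replicate 2 of the 4 h inhibitor group, replicate 1 of the 8 h inhibitor group, replicate 1 of the 8 h enantiomer group or replicate 2 of the untreated group (adjusted p between 0.0506 and 0.0521). RPL28 lost it in 14 of the 20 fits that left out 1 array, with differences of 0.22 to 0.33 and adjusted p of 0.0528 to 0.0929 in them, and kept it without replicate 2 of either LP-1 inhibitor group, of either LP-1 enantiomer group or of the 8 h Raji inhibitor group, and without replicate 1 of the 4 h Raji enantiomer group.

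RPS6 had the same mean in both lines, 11.62, a difference of -0.00 with an interval from -0.13 to 0.12. RPS24 differed by 0.03 and RPL35 by 0.13, and neither passed. RPS19 read between 3.83 and 5.44 in LP-1 and between 4.41 and 5.39 in Raji (0.39, adjusted p = 0.0949), at the weak end of the array. Among large-subunit members 5 were higher and 1 lower of 15, and among small-subunit members 1 was higher and 3 lower of 10. Calls in both directions thus stood in each subunit.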

How the data were processed

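RNA from 20 cultures was hybridised to Affymetrix exon arrays. Per the submitters' processing notes, the authors ran RMA in Affymetrix Expression Console (hg19); versions are not given in the sources used here. The table they deposited holds log2 values, 1 for each probe set that stands for a whole transcript, and these were used unchanged. RMA evens out arrays, so a change shared by all genes cannot be seen, and with 2 arrays a group their number limits the precision.

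Gene symbols were read from the platform annotation, which gives 1 symbol to 14432 probe sets, several to 2408 and none to 5171, and all 25 members matched RefSeq (GRCh38.p14) by Entrez identifier. limma 3.58.1 in R 4.3.3 was fitted to all 22011 probe sets and 20 arrays with a mean per group (residual degrees of freedom 10, prior 2.59). Each contrast was moderated with eBayes, tested two-sided and adjusted by Benjamini-Hochberg over all probe sets, and a call is an adjusted p under 0.05. The script was tested on simulated data. Groups and replicate numbers follow the labels. Within a line, deviations of same-numbered arrays correlated between -0.160 and 0.121, which does not settle whether the numbers pair the arrays. The main fit treats them as unpaired.

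The members and gene lists were chosen with earlier results of these data known. Named are the members with the smallest p in each contrast, the largest line differences, and the highest and lowest levels and spreads. RPL11, RPS6, RPS14, RPS19 and RPL22 are named throughout, with MYC and HEXIM1. Called genes of the lists are named up to 4 a list. Genes called over both times are added for assembly factors and mitochondrial ribosomal proteins only. Alternatives were a filter on low signal, quantile normalization, median centring, an intensity trend, a replicate block, the mean of a gene's probe sets, each line alone, each array left out and, added after seeing the data, own-locus probe sets only.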

Additional observations from a re-analysis of the deposited data

How the results depend on the processing

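Of 196 counts of called members recomputed under alternatives, 180 stayed within 1.5 times the reported count, 14 were higher and 2 lower. The members' medians lie close to 0 and turned sign under some alternative in all 4 comparisons of inhibitor with enantiomer. In LP-1 at 8 h, 0 calls became 1 (RPL28) with the dimmest probe sets left out (the filter on low signal), with quantile normalization, centring, an intensity trend or the replicate block, and 0 to 3 when 1 array was left out. Over both times in LP-1, 0 became 2 with that filter, 1 with the trend and 1 with the replicate block, and 0 to 3 with 1 array left out. The difference between lines at 8 h had 0 to 1. Between untreated lines, 3 became 5 with that filter, 5 with quantile normalization and 1 to 2 with 1 array left out. Over 5 conditions, leaving out 1 array gave 8 to 12. The remaining comparisons had 0 calls throughout. The cause of these changes was not tested, beyond that the filter removes 7337 probe sets from the adjustment and keeps 24 members. The replicate block, which treats the numbers as pairs, changed no other call, and whether same-numbered arrays are pairs is not known. A lone array left in a group is assumed to vary like the others. Own-locus probe sets alone gave the reported counts. Weak signal limits the 13 members with a mean of 9 or less.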
